A study of Mus musculus with 24 samples.

Results

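Untreated microglia of the mouse brain were compared with 3 cell types of the mouse cortex by cTag-PAPERCLIP, which recovers the mRNA of a chosen cell type from whole tissue. The comparison set the 2 untreated Cx3cr1-Cre libraries against the mean of the Camk2a-Cre, Gad2-Cre and Gfap-Cre groups of 2 libraries each, and covered every gene with enough counts. It used 8 of the 24 libraries of the series, chosen by their labels and not by any measured value. All 8 came from mice that also carried Ctag-PABP, a GFP-tagged poly(A)-binding protein that is made where Cre recombinase acts. The Cx3cr1-Cre libraries were made from brain, and the other 6 from dissected cortex, so the cell type and the tissue sampled cannot be told apart. No treatment is named for any of the 8, and the Cx3cr1-Cre ones are called untreated here for that reason. Age, sex, the number of animals behind each library and whether replicates came from separate animals are not given in the sources, and the p-values therefore reflect only how far libraries of a group lay apart, which may be technical.

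Microglia are the resident macrophages of the brain and descend from yolk sac progenitors rather than from the neural tube, which gives rise to neurons and astrocytes. They survey the tissue with motile processes, sense nucleotides and chemokines, and clear debris and synapses by phagocytosis. Cx3cr1 encodes the fractalkine receptor and its driver also acts in other brain macrophages, such as those of the meninges and perivascular spaces. Camk2a is used to mark excitatory forebrain neurons, Gad2 encodes a GABA-synthesising enzyme of inhibitory neurons, and Gfap encodes an intermediate filament of astrocytes. A bound library measures mRNA held by the tagged protein: fewer tagged cells and less RNA per cell cannot be told apart, and every value is relative to the other genes of its own library.

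The untreated libraries were the shallowest, at 154959 and 133456 counts against 630475 to 2005627 in the cortical libraries, and 1 count was worth 7.27 or 7.34 counts per 1000000 (CPM) in them. They also differed from each other more than any cortical pair. Their log2 values correlated at 0.786 over 6766 genes, against 0.965 to 0.987 within the cortical pairs, and of 985 genes with at least 50 counts over both, 271 (27.5%) lay more than 2-fold apart and 50 more than 4-fold. Among the genes furthest apart, Pfn1, the actin monomer binder profilin, stood at 17860 and 947 CPM in replicates 1 and 2, Usf1, a transcription factor, at 1562 and 73.4, Mgst3, a membrane glutathione transferase, at 865 and 22.02, and Thg1l at 465 and 0. In the other direction stood Eef1a1, a translation elongation factor, at 21.8 and 484, Pabpc1, the cytoplasmic poly(A)-binding protein, at 58.1 and 866, St3gal5, a sialyltransferase, at 29.1 and 374, and the table entry named Mir703 at 58.1 and 616. With 3 Cx3cr1-Cre libraries from PBS-treated mice, replicate 1 correlated at 0.804 to 0.858 and replicate 2 at 0.722 to 0.801, over 6723 genes. Fits without 1 of the untreated libraries are therefore given for some lists and genes below. Several other list counts, given for all 8 libraries only, were smaller without 1 untreated library.

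**Figure D1:**
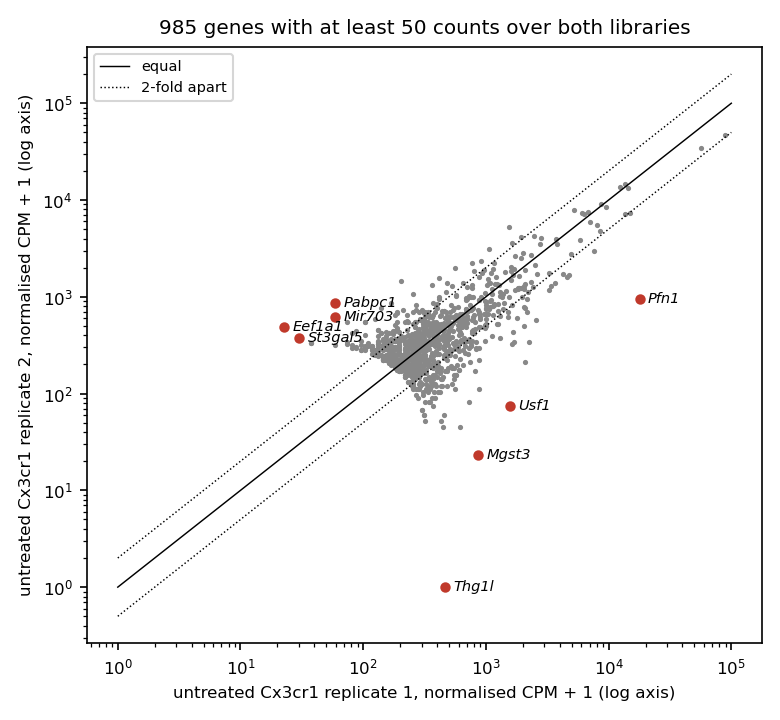
Each point is a gene with at least 50 counts over both untreated Cx3cr1 libraries, with normalised CPM + 1 of replicate 1 on the x axis and of replicate 2 on the y axis, both logarithmic. Of the 985 genes, 271 lie outside the dotted lines that mark 2-fold, and the 8 named genes are the furthest from the diagonal, 4 on each side.

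The marker genes matched the label. Csf1r, the receptor for the growth factors that keep microglia alive, stood at 14900 and 7266 CPM in the untreated Cx3cr1 libraries, 4.83 and 5.51 in Camk2a, 23.1 and 20.7 in Gad2 and 4.33 and 4.29 in Gfap (log2 difference 10.44, SE 0.32, adjusted p = 9.62e-15). Ctss, a lysosomal protease of macrophages, stood at 13690 and 14580 CPM in the untreated Cx3cr1 libraries, 1.45 and 5.51 in Camk2a, 10.8 and 17.7 in Gad2 and 0 and 1.84 in Gfap (log2 difference 11.72, SE 0.35, adjusted p = 9.55e-15). Both untreated libraries were above every cortical library by a wide margin, as they were for P2ry12 (3691 and 3978 against 0.483 to 17.3 CPM), a purinergic receptor that steers microglial processes, and for Cx3cr1 (923 and 1747 against 0 to 3.94). The driver genes of the cortical lines were low in the untreated libraries. Camk2a stood at 21.8 and 14.7 CPM there, below all cortical libraries (151 to 2149). Gad2 stood at 14.5 and 14.7, inside the range of 5.77 to 19.02 in the Camk2a and Gfap libraries and below the 798 and 938 of its own line (log2 difference -1.85, SE 0.65, adjusted p = 0.0249). Gfap had no count, against 597 and 641 CPM in its own line. Leaving out 1 library at a time moved the log2 difference of Csf1r to 9.67 without untreated replicate 1, that of Ctss to 12.70 without Gfap replicate 2 and that of Gad2 to -2.01 without untreated replicate 1 (adjusted p = 0.0746), -1.93 without untreated replicate 2 (adjusted p = 0.0984) and -1.69 without Gfap replicate 2 (adjusted p = 0.0583).

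**Figure D2:**
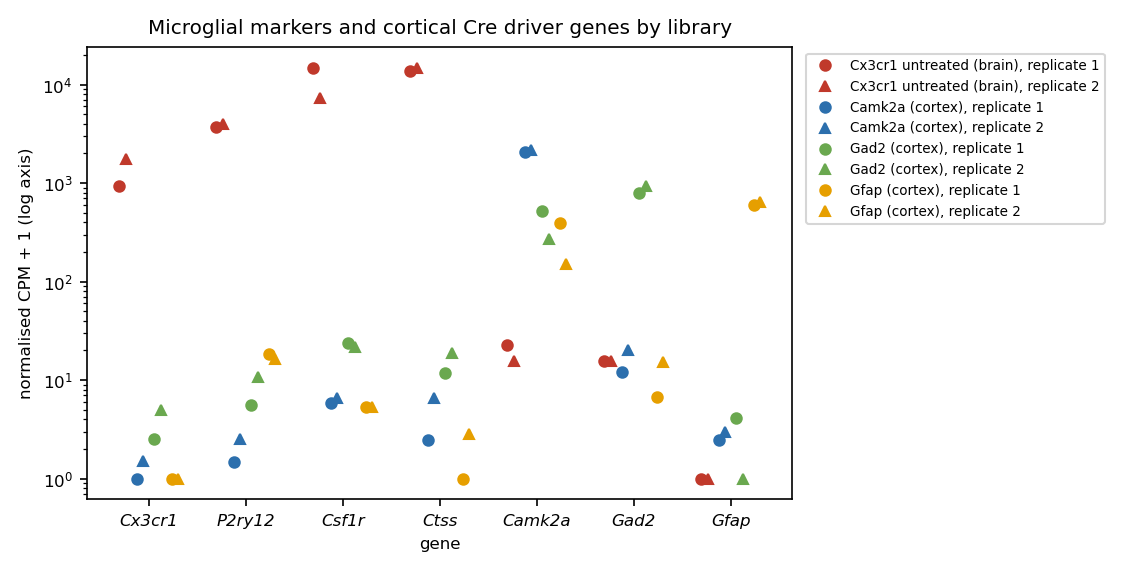
Normalised CPM + 1 (log axis) of 4 microglial markers and of the 3 cortical driver genes in each of the 8 libraries, circles for replicate 1 and triangles for replicate 2. The untreated Cx3cr1 libraries (red) lie above all cortical libraries for the 4 markers, and each cortical driver gene is highest in its own line.

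Of 9421 genes tested, 2051 (21.8%) were higher in untreated microglia and 2636 (28.0%) lower, or 4687 (49.8%) in either direction, at an adjusted p of 0.05 (edgeR quasi-likelihood test, Benjamini-Hochberg adjustment). Both untreated libraries lay above all 6 cortical libraries for 1831 genes (19.4%) and below all of them for 3005 (31.9%). The median log2 difference over all genes tested was -0.48, and a member list is read against these shares. No cortical library reached the untreated values for 1599 of the 2051 higher genes (78%). For another 296 (14.4%), only Gfap libraries did, against 46 (2.24%) where only Camk2a libraries did and 44 (2.15%) where only Gad2 libraries did. Among the 2636 lower genes, Gfap libraries alone reached down to the untreated values for 272 (10.3%), Camk2a libraries alone for 40 (1.52%) and Gad2 libraries alone for 37 (1.40%). In 64 of the higher genes no cortical library had a count, and in 691 of the lower genes neither untreated library had one, so their folds are lower bounds, from counts pooled over the group and set against 3 counts, worth 0.372 CPM in the cortical and 10.9 CPM in the untreated libraries. Of the genes tested, 815 would not have met the count filter in the cortical libraries alone, which is called below meeting it only through the untreated libraries; 621 of them were called higher and none lower. Of those that met it in the cortical libraries, 1430 were higher and 2636 lower. In the untreated libraries alone 4040 genes would not have met it, and 1648 of these were called lower. Counts in lists rich in genes of either kind describe which members were detected, and lend no support to a direction. Without untreated replicate 1 the test gave 1584 higher and 2464 lower genes, and without untreated replicate 2 it gave 1576 and 1993.

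**Figure D3:**
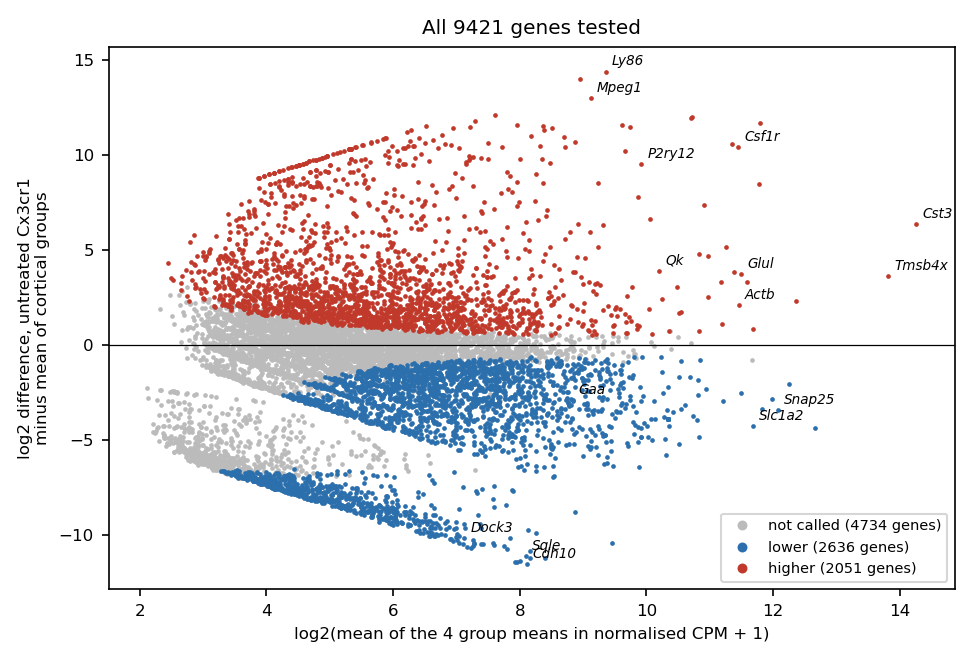
Each point is 1 of the 9421 genes tested, with log2 of the mean of the 4 group means (normalised CPM + 1) on the x axis and the log2 difference, untreated Cx3cr1 minus the mean of the cortical groups, on the y axis. Red points are the 2051 higher genes and blue points the 2636 lower genes; the detached lower band holds genes with no count in the untreated libraries, whose fitted differences are not measured folds.

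The genes tested that define resting microglia were highest in the untreated libraries. Of 21 homeostatic genes 20 passed the count filter, 13 of them only through the untreated libraries, and the 20 were called higher and lay above all cortical libraries, with a median log2 difference of 9.73. The 7 that also met the filter in the cortical libraries were among them. Together they took 14.4% and 11.4% of all counts in the untreated libraries, against 0.0251% to 0.0611% in the neuronal libraries and 1.15% and 0.729% in the Gfap libraries. Cst3, a secreted inhibitor of cysteine proteases, took the largest share of this, at 89440 and 47460 CPM in the untreated Cx3cr1 libraries, 156 and 199 in Camk2a, 389 and 258 in Gad2 and 12250 and 6679 in Gfap (log2 difference 6.39, SE 0.32, adjusted p = 5.84e-12). The untreated libraries were the highest and the Gfap libraries came next, well above the neurons. The count of 20 was the same without either untreated library.

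Other members were looked up for their known roles after their values had been seen. Tmem119, a membrane protein used to tell microglia from blood-derived macrophages, stood at 683 and 749 CPM against 0 to 3.08 (log2 difference 9.81, SE 0.31, adjusted p = 1.22e-14). Sall1, a transcription factor that maintains microglial identity, stood at 371 and 543 CPM in the untreated Cx3cr1 libraries, 0.966 and 0 in Camk2a, 19.99 and 18.7 in Gad2 and 63.5 and 82.2 in Gfap (log2 difference 5.57, SE 0.30, adjusted p = 1.49e-11). Its untreated values were the highest, its Gfap values intermediate and its Camk2a values near 0. Sparc, a secreted matrix protein, showed the same order, at 6300 and 7237 CPM in the untreated libraries, 878 and 974 in Gfap and 2.90 to 12.3 in the neuronal libraries (log2 difference 7.40, SE 0.27, adjusted p = 6.55e-14). Fits that each lacked 1 library shifted the log2 difference of Cst3 to 5.70 without untreated replicate 1 and that of Sall1 to 6.20 without Camk2a replicate 1.

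The promoters of homeostatic genes are shown because these genes moved together. They come from RefSeq (GRCm38.p6) and run from 250 bases before to 50 after an annotated start; 14 of the 21 genes had an entry, with 17 promoters in all. Capitals mark GAGGAAG or its reverse complement CTTCCTC, the core letters bound by PU.1, a master regulator of macrophages encoded by Spi1. The promoter of Ctss lies at chr3:95526536-95526835, plus strand, that of Trem2 at chr17:48346151-48346450, plus strand and that of P2ry13 at chr3:59210833-59211132, minus strand.
Ctss: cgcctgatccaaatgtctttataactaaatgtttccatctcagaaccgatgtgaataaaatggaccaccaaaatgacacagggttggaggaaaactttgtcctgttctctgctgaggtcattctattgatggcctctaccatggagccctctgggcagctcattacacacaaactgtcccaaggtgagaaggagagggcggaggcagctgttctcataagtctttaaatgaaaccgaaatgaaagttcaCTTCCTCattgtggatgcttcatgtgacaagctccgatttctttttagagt
Trem2: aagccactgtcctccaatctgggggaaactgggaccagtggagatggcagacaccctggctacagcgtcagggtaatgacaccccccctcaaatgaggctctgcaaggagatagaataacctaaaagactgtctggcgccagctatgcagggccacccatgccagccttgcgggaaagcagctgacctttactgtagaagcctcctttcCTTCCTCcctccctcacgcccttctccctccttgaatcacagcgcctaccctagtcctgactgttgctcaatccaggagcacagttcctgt
P2ry13: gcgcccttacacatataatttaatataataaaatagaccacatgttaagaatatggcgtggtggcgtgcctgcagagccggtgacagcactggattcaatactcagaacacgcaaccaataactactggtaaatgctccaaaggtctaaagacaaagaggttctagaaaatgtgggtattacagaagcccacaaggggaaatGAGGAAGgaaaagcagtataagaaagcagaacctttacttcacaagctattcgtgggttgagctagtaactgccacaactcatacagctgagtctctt
P2ry13, a nucleotide receptor like P2ry12 that was named after its values were seen, stood at 618 and 338 CPM against 0 to 1.54 (log2 difference 10.56, SE 0.47, adjusted p = 2.72e-12). Dropping single libraries took the log2 difference of P2ry13 to 11.38 without Gad2 replicate 1. The match begins at position -1 from the start in Ctss, at -41 in Trem2 and at -48 in P2ry13. On either strand, these letters occurred in 5 of the 17 homeostatic promoters (29.4%), the other two being at Fcrls and at an inner start of Tgfbr1, and in 8 of 18 promoters of the TREM2-TYROBP-SYK list (44.4%). They occurred in 4477 of 32851 promoters overall (13.6%), in 17.2% of those of the higher genes, 11.5% of the lower and 13.4% of those tested and not called. They also occurred in 3 of 10 promoters of pan-neuronal genes (30.0%), so these shares rest on few promoters. TGTGGTT (RUNX factors) was found in 3.36% of promoters of the higher genes and 3.19% of the lower, TGANTCA (AP-1) in 5.45% and 4.81%, and TGACGTC (the cyclic AMP response element) in 3.82% and 5.12%, each on either strand and against 5.27%, 7.81% and 3.21% of all promoters. A match is a description of these letters in this window.

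The complement list had the largest median of the lists drawn with 5 or more tested members. Complement tags debris and synapses for engulfment. Of its list, 10 of 10 tested members, of 12 listed, were higher, with a median of 10.47. Among the 10 was Csf3r, a cytokine receptor gene that is not part of complement. The count filter was met only through the untreated libraries by 8 of the 10. The 3 chains of C1q, which starts the classical cascade, were high in both untreated libraries. C1qa, named after its values were seen, stood at 872 and 689.9 CPM against 0 to 0.483 in the cortical libraries (log2 difference 12.13, SE 0.38, adjusted p = 1.03e-13). C1qb stood at 8530 and 4800 against 0 to 3.08 and C1qc at 13690 and 7208 against 0.614 to 28.6, with log2 differences of 11.96 ± 0.38 and 10.58 ± 0.36 (SE). Itgam, the alpha chain of complement receptor CR3, stood at 799 and 1828 against 0 to 1.97 (log2 difference 11.55, SE 0.41, adjusted p = 1.22e-13). C3 and Serping1 had no count in the untreated libraries and did not enter the test. Removing 1 library in turn brought the log2 difference of C1qb to 11.35 without untreated replicate 1, 12.92 without Gfap replicate 1 and 11.27 without Gfap replicate 2, that of C1qc to 9.90 without untreated replicate 1 and 9.96 without Gfap replicate 2 and that of Itgam to 10.84 without untreated replicate 2. The list gave 10 without untreated replicate 1 and 8 without untreated replicate 2.

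Fc receptors, which bind antibody-coated particles, and sialic acid receptors were detected in the untreated libraries. Of 18 listed, 10 were tested, each of which met the count filter only through the untreated libraries, and all 10 were called higher (median 10.21). Fcer1g, the signalling chain shared by activating Fc receptors, stood at 7978 and 5490 CPM in the untreated Cx3cr1 libraries, 2.42 and 1.502 in Camk2a, 3.08 and 3.94 in Gad2 and 1.44 and 0 in Gfap (log2 difference 12.02, SE 0.33, adjusted p = 5.23e-15). Fcgr3, an activating receptor, stood at 2747 and 3530 CPM against 0 to 3.94 (log2 difference 11.60, SE 0.33, adjusted p = 5.23e-15). Fcgr2b, the inhibitory receptor, stood at 2056 and 499 against 0 to 1.97, so activating and inhibitory members were both above every cortical library. The difference for Fcgr2b was 10.50 ± 0.48 (SE; adjusted p = 1.41e-12). A fit without 1 of the libraries changed the log2 difference of Fcer1g to 12.69 without Gfap replicate 1 and 11.35 without Gfap replicate 2, that of Fcgr3 to 12.20 without Camk2a replicate 1 and that of Fcgr2b to 9.01 without untreated replicate 1 and 11.15 without untreated replicate 2.

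Downstream of the lipid-sensing receptor Trem2, 14 of 14 tested members of the adaptor and kinase relay, of 18 listed, were higher, with a median of 9.63; 13 of the 14 met the filter only through the untreated libraries. Tyrobp, the adaptor that carries the Trem2 signal, stood at 4774 and 1695 CPM in the untreated Cx3cr1 libraries, 2.42 and 2.0 in Camk2a, 9.23 and 7.89 in Gad2 and 0 and 1.23 in Gfap (log2 difference 10.23, SE 0.37, adjusted p = 6.44e-14). Trem2 itself stood at 836 and 338 CPM against 0 to 2.90 (log2 difference 9.88, SE 0.45, adjusted p = 4.09e-12). Syk, the kinase recruited by Tyrobp, was detected at a lower level, 50.9 and 22.02 against 0 to 2.0 (log2 difference 6.94, SE 1.05, adjusted p = 3.44e-05). Fyb, an adaptor of immune cell adhesion, stood at 327 and 418 against 0 to 1.54 (log2 difference 9.71, SE 0.41, adjusted p = 1.48e-12). The phosphatases that restrain this relay were also above every cortical library: Ptpn6 stood at 145 and 95.4 with no cortical count, at least 324-fold higher, and Inpp5d at 196 and 374 against 0 to 1.502, with a log2 difference of 9.54 ± 0.56 (SE). With libraries left out singly, the fit moved the log2 difference of Tyrobp to 9.15 without untreated replicate 1 and 11.04 without Gfap replicate 2, that of Trem2 to 8.99 without untreated replicate 1 and 10.65 without Gad2 replicate 2 and that of Inpp5d to 10.25 without Camk2a replicate 2. Of the list, 10 without untreated replicate 1 and 13 without untreated replicate 2 were called.

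Toll-like receptors detect microbial products, and 9 of 18 listed members were tested. Of these, 7 met the filter only through the untreated libraries; all 9 were called higher (median 8.78), 7 of them above all cortical libraries. Unc93b1, which carries the endosomal receptors to their compartment, stood at 988 and 514 CPM against 1.502 to 17.8 (log2 difference 7.18, SE 0.29, adjusted p = 2.97e-13). The exceptions to the separation were Tlr3 and Irak1, in which the Gfap libraries reached the untreated level. Tlr3, a sensor of double-stranded RNA, stood at 138 and 88.1 CPM in the untreated Cx3cr1 libraries, 0.966 and 1.0 in Camk2a, 3.08 and 0.986 in Gad2 and 126 and 127.6 in Gfap (log2 difference 4.13, SE 0.43, adjusted p = 2.16e-07). Irak1, a kinase that relays Toll-like receptor signals, stood at 87.2 and 51.4 against 98.1 and 93.2 in Gfap (log2 difference 1.11 ± 0.40, SE). The cytokine receptor list gave 14 higher and 1 lower of 20 (median 5.18), and 8 of the 14 met the filter only through the untreated libraries. Interferon receptor genes varied. Ifngr1 stood at 1395 and 859 against 33.04 to 119.6 (log2 difference 4.42, SE 0.20, adjusted p = 2.03e-12), and Ifnar2 at 399.6 and 323 against 43.05 to 132 (log2 difference 2.45, SE 0.23, adjusted p = 6.72e-08), while Ifnar1 stood at 14.5 and 36.7 against 26.1 to 47.6 and did not pass (adjusted p = 0.422). The lower member was Jak1, a kinase that serves many cytokine receptors, at 124 and 73.4 against 177 to 252 (log2 difference -1.18, SE 0.32, adjusted p = 0.00493). Refitting on 7 of the 8 libraries brought the log2 difference of Unc93b1 to 6.47 without untreated replicate 1, that of Irak1 to between 0.52 and 1.03, with adjusted p from 0.0532 to 0.474, without any 1 of Camk2a replicate 1, Gad2 replicate 2, Gfap replicate 1, Gfap replicate 2 and untreated replicate 1 and that of Jak1 to -0.92 without untreated replicate 2 (adjusted p = 0.0652).

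Of the chemokine receptor and G protein list 16 of 17 were higher, with a median of 6.60, 10 of them tested only through the untreated libraries. Gpr34, a lysophosphatidylserine receptor of microglia, stood at 2812 and 4037 CPM against 0 to 7.69 (log2 difference 11.49, SE 0.35, adjusted p = 1.12e-14). Among G protein subunits the difference varied. Gnai2, an inhibitory alpha subunit, stood at 3778 and 3545 CPM in the untreated Cx3cr1 libraries, 219 and 193 in Camk2a, 235 and 229.7 in Gad2 and 1695 and 1597 in Gfap (log2 difference 3.09, SE 0.20, adjusted p = 2.69e-10), highest in the untreated libraries and next in Gfap. Gng10, a gamma subunit, stood at 974 and 895 against 55.4 to 283 (log2 difference 2.81, SE 0.19, adjusted p = 6.42e-10). Gngt2, another gamma subunit that lies outside the lists, stood at 1649 and 1659 against 0 to 4.61 (log2 difference 10.97, SE 0.30, adjusted p = 9.62e-15). The log2 difference without 1 library moved for some genes: that of Gpr34 to 12.09 without Camk2a replicate 1, 12.16 without Gfap replicate 1 and 10.82 without Gfap replicate 2.

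Transcription factors of the myeloid lineage were mostly higher, 14 of 16 with a median of 6.48, and 8 of the 10 that met the filter in the cortical libraries. Spi1 and Irf8, which were named after their values had been seen, are required to make microglia. Spi1 stood at 559.5 and 154 CPM against 0 to 0.986 (log2 difference 10.68, SE 0.66, adjusted p = 6.6e-10), and Irf8 at 159.9 and 110.1 against 0 to 2.0 (log2 difference 8.11, SE 0.63, adjusted p = 7.29e-09). Maf, a factor of macrophages, stood at 167 and 859 CPM in the untreated Cx3cr1 libraries, 2.42 and 6.01 in Camk2a, 59.97 and 65.1 in Gad2 and 0 and 1.84 in Gfap (log2 difference 6.14, SE 0.46, adjusted p = 2.66e-09), with Gad2 above Camk2a and Gfap. Cebpa, a factor of myeloid differentiation, stood at 2260 and 338 against 0 to 52.8 and was far higher in replicate 1 (log2 difference 6.81, SE 0.45, adjusted p = 3.77e-10). Mef2a, named after its values were seen, stood at 182 and 184 against 14.1 to 101 (log2 difference 1.93, SE 0.31, adjusted p = 4.49e-05). Mef2c, which neurons also use, did not pass: it stood at 189 and 176 in the untreated libraries, 321 and 386 in Camk2a and 47.6 and 26.99 in Gfap (log2 difference 0.36, adjusted p = 0.296). Leaving out 1 library at a time moved the log2 difference of Spi1 to 9.43 without untreated replicate 1, 11.38 without untreated replicate 2 and 11.46 without Gad2 replicate 2, that of Irf8 to 8.88 without Gad2 replicate 2 and that of Maf to 6.73 without untreated replicate 1, 4.47 without untreated replicate 2 and 7.13 without Gfap replicate 2. Fits that each lacked 1 library shifted the log2 difference of Cebpa to 4.71 without untreated replicate 1, 7.55 without untreated replicate 2 and 8.06 without Gad2 replicate 2.

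The phagocyte NADPH oxidase makes superoxide at the engulfed particle, and all 7 of its listed genes were higher, with a median of 8.72; each met the count filter only through the untreated libraries. Ncf1, a cytosolic organiser subunit, stood at 828 and 294 CPM against 0 to 1.54 (log2 difference 9.52, SE 0.44, adjusted p = 2.14e-12). Cyba, the small membrane subunit, stood at 298 and 66.1 against 0 to 10.1 (log2 difference 7.51, SE 0.71, adjusted p = 9.01e-08). Hvcn1, the proton channel that balances the oxidase's charge, stood at 102 and 95.4 against 0 to 1.44, a difference of 8.41 ± 0.75 (SE). Dropping single libraries took the log2 difference of Ncf1 to 8.46 without untreated replicate 1, that of Cyba to 5.95 without untreated replicate 1, 8.22 without untreated replicate 2 and 8.36 without Camk2a replicate 2 and that of Hvcn1 to 9.11 without Gfap replicate 1 and 7.70 without Gfap replicate 2. These genes had few counts, and 5 of the 7 were called without untreated replicate 1, 5 without untreated replicate 2.

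Actin regulators drive the motility of microglial processes, and 24 of 26 tested members of their list were higher (median 3.47), as were 15 of the 17 that met the filter in the cortical libraries. Tmsb4x, a thymosin that holds actin monomers, stood at 56690 and 34720 CPM in the untreated Cx3cr1 libraries, 3655 and 3330 in Camk2a, 6283 and 5968 in Gad2 and 2331 and 2373 in Gfap (log2 difference 3.63, SE 0.25, adjusted p = 8.51e-10). Every untreated value exceeded every cortical one. Actb, cytoplasmic beta-actin, stood at 7048 and 5916 against 1033 to 2683 (log2 difference 2.13, SE 0.22, adjusted p = 1.68e-07). Cfl1, the actin-severing cofilin, stood at 1061 and 3141 against 14.8 to 54.6 (log2 difference 5.96, SE 0.30, adjusted p = 5.77e-12). Scaled by library totals alone, Cfl1 stood at 942.2 and 3207 CPM in the untreated libraries. In the PBS-treated Cx3cr1 libraries it stood lower, at 170.4, 386.7 and 109.5, against 15.78 to 50.86 in the cortical ones. Pfn1 was called higher (log2 difference 3.32, SE 0.50, adjusted p = 2.24e-05), but its second untreated value lay inside the cortical range of 590.2 to 1419. Removing 1 library in turn brought the log2 difference of Cfl1 to 4.92 without untreated replicate 2 and that of Pfn1 to -0.15 without untreated replicate 1 (adjusted p = 0.688) and 4.18 without untreated replicate 2. Of the 24, 18 were called without untreated replicate 1 and 22 without untreated replicate 2.

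Among integrins and other adhesion genes 11 of 16 were higher and 1 lower (median 5.43); 6 of the 16 met the filter only through the untreated libraries. Itgb2, the beta chain of leukocyte integrins, stood at 472 and 689.9 CPM against 0 to 1.97 (log2 difference 9.96, SE 0.36, adjusted p = 1.48e-13). Itgb5 stood at 1068 and 741 CPM in the untreated Cx3cr1 libraries, 0.966 and 1.0 in Camk2a, 6.15 and 3.94 in Gad2 and 180.3 and 177 in Gfap (log2 difference 6.51, SE 0.25, adjusted p = 1.1e-13), and Itgb1 at 654 and 279 against 21.5 to 180.4 (log2 difference 3.17, SE 0.27, adjusted p = 1.33e-08). In both, the Gfap libraries were the next highest. Kindlins switch integrins on: Fermt2, the broadly expressed one, had no untreated count against 231 and 249.7 in Gfap and 7.69 to 11.8 in the neurons, where 3 untreated counts would be worth 10.9 (adjusted p = 0.00312). A fit without 1 of the libraries changed the log2 difference of Itgb1 to 2.26 without untreated replicate 1.

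Related genes of the same function often divided between microglia and the cortical cell types. In 30 pairs with both members tested, the first being, in most pairs, the one better known outside neurons, the first had the larger log2 difference in 29, and it was called higher in 26. The second was called lower in 14 and higher in 7, and in 11 pairs the first was higher and the second lower. The pairs were chosen with earlier results known, so these counts are a description. Dock2, an activator of the GTPase Rac in leukocytes, stood at 312 and 316 CPM against 0 to 1.23 (log2 difference 9.49, SE 0.45, adjusted p = 8.28e-12). Its relative Dock3 had no untreated count against 34.97 to 321, at least 19.2-fold lower (adjusted p = 2.81e-06). Nckap1l, the haematopoietic subunit of the WAVE actin regulator, stood at 153 and 147 against 0 to 1.54, while Nckap1 stood at 29.1 and 44.04 against 374 to 634 (log2 difference -3.79, SE 0.37, adjusted p = 9.53e-08). The kinase Syk, given above, was higher, and its counterpart Ptk2, a kinase of focal adhesions, stood at 0 and 7.34 against 30.8 to 173 (log2 difference -4.51, SE 0.75, adjusted p = 5.76e-05). With libraries left out singly, the fit moved the log2 difference of Dock2 to 10.26 without Gad2 replicate 2 and 10.25 without Gfap replicate 2, that of Nckap1l to 9.29 without Gad2 replicate 1 and that of Ptk2 to -3.69 without untreated replicate 1 and -9.66 without untreated replicate 2.

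Several second members did not pass the test, so the division was not always an exchange. Lcp1, the leukocyte plastin that bundles actin, stood at 654 and 1380 CPM against 0 to 1.97 (log2 difference 9.80, SE 0.36, adjusted p = 8.95e-14), and Pls3 at 7.27 and 44.04 against 38.95 to 109 (log2 difference -1.48, SE 0.53, adjusted p = 0.0273). Pik3cg, the leukocyte phosphoinositide kinase, stood at 327 and 499 against 0 to 2.96, while Pik3ca stood at 94.5 and 264 against 146 to 269 and did not pass (adjusted p = 0.545). Cyth4, an exchange factor for Arf GTPases, stood at 254 and 80.7 with no cortical count, at least 451-fold higher, while Cyth1 lay in the same range on both sides (109 and 73.4 against 69.2 to 104; adjusted p = 0.832). Arhgdib, the leukocyte inhibitor of GTPase release, stood at 283 and 323 against 0 to 0.501 (log2 difference 10.77, SE 0.52, adjusted p = 2.61e-11), and Arhgdia was called higher as well (385 and 154 against 69.01 to 152). Prkcd, a protein kinase C, stood at 225 and 338 against 0 to 31.3 (log2 difference 7.54, SE 0.45, adjusted p = 2.07e-10). The pair with the opposite sign was alpha tubulin, listed with the isotype typical of neurons first: Tuba1a was lower (log2 difference -2.55, SE 0.40, adjusted p = 3.63e-05) and Tuba1b did not pass (50.9 and 22.02 against 6.13 to 24.6; adjusted p = 0.0788). Refitting on 7 of the 8 libraries brought the log2 difference of Lcp1 to 9.12 without untreated replicate 2, 10.41 without Camk2a replicate 1 and 10.86 without Gad2 replicate 2, that of Pls3 to -0.86 without untreated replicate 1 (adjusted p = 0.219) and -3.35 without untreated replicate 2 and that of Pik3cg to 11.66 without Gad2 replicate 2. The log2 difference without 1 library moved for some genes: that of Pik3ca to -1.22 without untreated replicate 2, that of Cyth4 to 11.15 without untreated replicate 2 and that of Arhgdia to 0.29 without untreated replicate 1 (adjusted p = 0.5). Leaving out 1 library at a time moved the log2 difference of Tuba1b to 0.33 without untreated replicate 1.

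**Figure D4:**
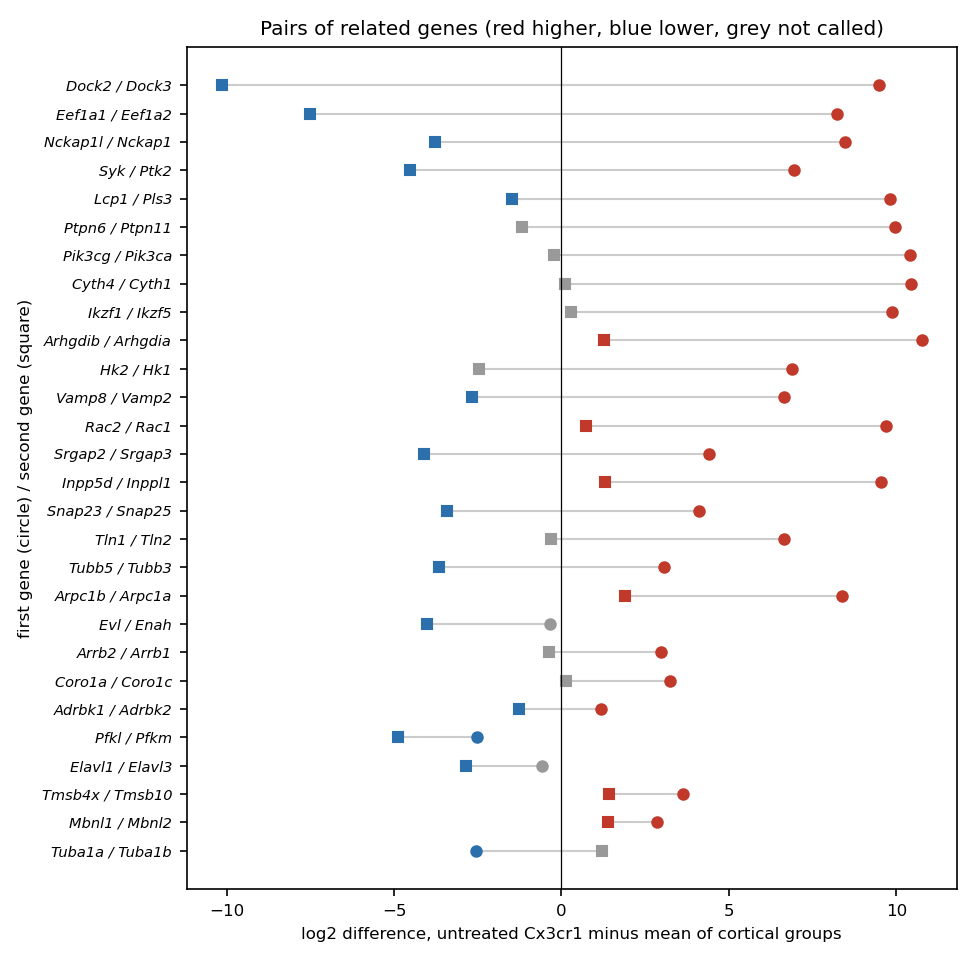
Log2 differences, untreated Cx3cr1 minus the mean of the cortical groups, for 28 of the 30 pairs, the first gene as a circle and the second as a square, red for higher, blue for lower and grey for not called. The circle lies to the right of the square in 27 of those drawn, all but Tuba1a and Tuba1b, and in 10 a red circle is joined to a blue square; values of genes with no count on one side are fitted and not measured folds.

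Lysosomal genes were higher in 26 and lower in 2 of 35 (median 2.58), and their summed level was 48350 to 49280 CPM in the untreated libraries against 3194 to 5949 in the cortical libraries. Of the 26, 8 met the count filter only through the untreated libraries. Lgmn, an asparagine-specific protease, stood at 6728 and 7567 CPM in the untreated Cx3cr1 libraries, 232 and 199 in Camk2a, 329 and 386 in Gad2 and 218 and 322 in Gfap (log2 difference 4.70, SE 0.22, adjusted p = 2.23e-12). Ctsb, a cathepsin made in all these cells, stood at 1722 and 2657 against 321 to 435 (log2 difference 2.58, SE 0.21, adjusted p = 5.78e-09). Both were separated from all cortical libraries. Gaa, which breaks down glycogen in lysosomes, went the other way, at 72.7 and 58.7 CPM in the untreated Cx3cr1 libraries, 380.1 and 402 in Camk2a, 1003 and 1147 in Gad2 and 286 and 293 in Gfap (log2 difference -2.91, SE 0.33, adjusted p = 5.09e-07), with the Gad2 libraries highest. The other lower member was Atp6v0d1, a proton pump subunit, at 72.7 and 14.7 against 93.7 to 118 (log2 difference -1.31, SE 0.42, adjusted p = 0.0152). Fits that each lacked 1 library shifted the log2 difference of Atp6v0d1 to -3.04 without untreated replicate 1 and -0.64 without untreated replicate 2 (adjusted p = 0.235).

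Antigen presentation genes were higher in 12 of 12, with a median of 7.95, and 8 of the 12 met the filter only through the untreated libraries. B2m, the light chain of class I molecules, stood at 9540 and 8397 CPM in the untreated Cx3cr1 libraries, 282 and 218 in Camk2a, 186 and 125 in Gad2 and 454 and 318 in Gfap (log2 difference 5.19, SE 0.24, adjusted p = 1.43e-12). H2-K1, a class I heavy chain, stood at 2085 and 763 CPM against 469 and 434 in Gfap and 12.1 to 31.6 in the neurons (log2 difference 4.64, SE 0.27, adjusted p = 5.86e-11). Its near-identical relatives make the counts of single class I genes uncertain. Cd74, the chaperone of class II molecules, stood at 2311 and 1417 against 0 to 3.08 (log2 difference 10.69, SE 0.34, adjusted p = 1.2e-14). Dropping single libraries took the log2 difference of H2-K1 to 3.58 without untreated replicate 1 and that of Cd74 to 11.79 without Gad2 replicate 1 and 11.50 without Gfap replicate 2.

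TGF-beta signalling maintains the resting state of microglia, and here 7 of 13 tested genes were higher (median 1.12). The receptor genes differed among themselves. Tgfbr2, the ligand-binding receptor, stood at 1170 and 822 CPM in the untreated Cx3cr1 libraries, 6.28 and 4.0 in Camk2a, 109 and 102 in Gad2 and 21.6 and 14.7 in Gfap (log2 difference 5.55, SE 0.22, adjusted p = 1.97e-13), with Gad2 above the other cortical groups. Tgfbr1, its signalling partner, stood at 1991 and 2804 against 3.94 to 10.1 (log2 difference 8.53 ± 0.24, SE). Smad3, which carries the signal to the nucleus, stood at 138 and 125 CPM in the untreated Cx3cr1 libraries, 167 and 126 in Camk2a, 18.4 and 13.8 in Gad2 and 64.9 and 70.5 in Gfap (log2 difference 1.28, SE 0.31, adjusted p = 0.00203); Camk2a replicate 1 lay above and replicate 2 between the untreated values. Ski, an inhibitor of the Smads, stood at 1032 and 668 against 306 to 489.6 (log2 difference 1.12, SE 0.22, adjusted p = 0.000312). The ligand genes Tgfb2 and Tgfb3 and the co-receptor gene Tgfbr3 had no untreated count, and Tgfb1 had too few counts to be tested.

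Iron handling genes were higher in 8 of 13 (median 3.54). Of the 8, 5 met the count filter only through the untreated libraries. Trf, the iron carrier transferrin, stood at 538 and 624 CPM in the untreated Cx3cr1 libraries, 1.93 and 4.50 in Camk2a, 4.61 and 1.97 in Gad2 and 11.5 and 71.2 in Gfap (log2 difference 6.20, SE 0.40, adjusted p = 2.83e-10), and Slc40a1, the iron exporter, at 225 and 228 against 3.08 to 5.77 (log2 difference 5.80, SE 0.35, adjusted p = 9.11e-11). Fth1, the ferritin heavy chain, stood at 1984 and 991 against 446 to 1240, with the lower untreated value inside the cortical range (log2 difference 1.08, SE 0.25, adjusted p = 0.00163). Of the lipid list, 14 of 16 genes were higher (median 3.77), and 6 of the 14 met the filter only through the untreated libraries. This list held genes of cholesterol efflux and also Alox5ap, Alox5, Ltc4s, Hpgds and Ptgs1, which serve leukotriene and prostaglandin synthesis. Lpcat2, a phospholipid-remodelling enzyme, stood at 1301 and 631 against 2.0 to 11.7 (log2 difference 7.33, SE 0.29, adjusted p = 1.97e-13). Abcg1, a sterol exporter, stood at 559.5 and 579.8 against 2.88 to 132, lowest in Gfap (log2 difference 3.65, SE 0.27, adjusted p = 1.8e-09). Apoe, the lipid carrier, stood at 327 and 433 CPM in the untreated Cx3cr1 libraries, 0.483 and 0.501 in Camk2a, 1.54 and 0.986 in Gad2 and 294 and 255 in Gfap (log2 difference 5.97, SE 0.31, adjusted p = 1.25e-11), high in both glial types and near 0 in both neuronal ones. Removing 1 library in turn brought the log2 difference of Fth1 to 0.33 without untreated replicate 1 (adjusted p = 0.29) and that of Lpcat2 to 6.55 without untreated replicate 1.

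Metabolic genes were mostly lower. In cholesterol synthesis 11 of 17 tested genes were lower and none higher, with a median of -3.14, or -1.44 when the 7 genes without an untreated count are set at their bound. Of the 17, 14 would not have met the count filter in the untreated libraries alone, and 8 of the 11 lower genes were among them. The summed level was 189 to 198 CPM in the untreated libraries against 760.1 to 4563 in the cortical libraries. Hmgcs1, an early enzyme of the pathway, stood at 21.8 and 29.4 CPM in the untreated Cx3cr1 libraries, 85.5 and 84.6 in Camk2a, 58.4 and 73.9 in Gad2 and 837 and 903 in Gfap (log2 difference -2.73, SE 0.42, adjusted p = 2.68e-05), and Insig1, a sterol-controlled brake on the pathway, at 58.1 and 0 against 53.1 to 601 (log2 difference -2.71, SE 0.64, adjusted p = 0.00174). Both genes were highest in Gfap. Both untreated libraries were below all cortical libraries for Hmgcs1, while for Insig1 untreated replicate 1 lay just above Camk2a replicate 2. A fit without 1 of the libraries changed the log2 difference of Insig1 to -10.81 without untreated replicate 1 and -1.78 without untreated replicate 2. The lower count was 10 without untreated replicate 1 and 6 without untreated replicate 2; with PBS-treated Cx3cr1 libraries in their place it was 10.

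Glycolytic genes were lower in 11 and higher in 2 of 16 tested, of 20 listed (median -2.50). The pathway genes Gapdh, Pgk1 and Eno1 had few or no counts in every library and were not tested. Of the 11, 5 would not have met the count filter in the untreated libraries alone. Tpi1, triosephosphate isomerase, stood at 116 and 110.1 CPM in the untreated Cx3cr1 libraries, 905 and 931 in Camk2a, 876 and 727 in Gad2 and 685 and 491 in Gfap (adjusted p = 7.34e-07), below all cortical libraries. Pfkm and Pfkl, subunits of phosphofructokinase, were both lower: Pfkm stood at 7.27 and 14.7 CPM against 192 to 557 (log2 difference -4.87, SE 0.48, adjusted p = 1.12e-07), and Pfkl at 14.5 and 7.34 against 21.5 to 122 (log2 difference -2.53, SE 0.60, adjusted p = 0.00165). Aldoc, the astrocyte aldolase, stood at 65.4 and 14.7 against 7114 and 4943 in Gfap and 70.1 to 115 in the neurons (log2 difference -3.16, SE 0.47, adjusted p = 1.61e-05). The 2 higher genes were Hk2, the inducible hexokinase, at 50.9 and 66.1 against 0 to 2.88, and Ldha, a lactate dehydrogenase subunit, at 153 and 294 against 50.3 to 267 (log2 difference 0.87, SE 0.28, adjusted p = 0.0146). Hk2 rested on 7 and 9 untreated counts and met the count filter only through the untreated libraries. The untreated values of Ldha overlapped those of the Camk2a and Gfap libraries. With libraries left out singly, the fit moved the log2 difference of Pfkl to -3.26 without untreated replicate 1, that of Pfkm to -5.52 without untreated replicate 2 and that of Aldoc to -4.76 without untreated replicate 1 and -2.52 without untreated replicate 2. Refitting on 7 of the 8 libraries brought the log2 difference of Ldha to 0.26 without untreated replicate 2 (adjusted p = 0.584), 0.72 without Camk2a replicate 2 (adjusted p = 0.0573) and 0.75 without Gad2 replicate 2 (adjusted p = 0.0601). With the PBS-treated libraries in place of the untreated ones Ldha stood at -0.10.

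Nuclear genes of the respiratory chain were lower in 17 and higher in 1 of 30 (median -1.41), and 21 lay below all cortical libraries. Cox6c, a subunit of cytochrome oxidase, stood at 182 and 191 CPM in the untreated Cx3cr1 libraries, 579 and 558 in Camk2a, 629 and 761 in Gad2 and 763 and 638 in Gfap (log2 difference -1.81, SE 0.27, adjusted p = 2.2e-05). The cell types other than microglia lay close together. Cox6a1, another subunit, stood at 799 and 418 against 1589 to 2858 (log2 difference -1.81, SE 0.29, adjusted p = 4.47e-05), and Ndufa4 at 545 and 139.5 against 1302 to 4202 (log2 difference -2.60, SE 0.40, adjusted p = 2.69e-05). Ndufa2, a complex I subunit, was the only higher gene of the 30, at 116 and 103 CPM in the untreated Cx3cr1 libraries, 13.5 and 13.02 in Camk2a, 21.5 and 21.7 in Gad2 and 53.4 and 40.5 in Gfap (log2 difference 2.21, SE 0.35, adjusted p = 3.2e-05). The log2 difference without 1 library moved for some genes: that of Cox6a1 to -2.51 without untreated replicate 1 and that of Ndufa4 to -4.06 without untreated replicate 1 and -2.0 without untreated replicate 2.

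Ribosomal protein genes went the opposite way, with 31 of 34 higher, none lower and a median of 2.28. Their summed level was 18360 to 27890 CPM in the untreated libraries against 4137 to 7134 in the cortical libraries. Rpl13, a large-subunit protein, stood at 2514 and 2121 CPM in the untreated Cx3cr1 libraries, 509 and 553 in Camk2a, 515 and 443 in Gad2 and 988 and 751 in Gfap (log2 difference 1.94, SE 0.21, adjusted p = 3.02e-07), and Rplp1, a stalk protein, at 7622 and 2980 against 667 to 1329 (log2 difference 2.56, SE 0.28, adjusted p = 4.54e-07). Rps24, a small-subunit protein, stood at 4599 and 1607 against 641 to 1424 (log2 difference 1.74, SE 0.29, adjusted p = 5.69e-05). For all 3 genes the untreated values were above the cortical ones, and replicate 1 was the higher. Many of these genes have near-identical pseudogene copies, which can draw reads away: the 24 tested genes with a named copy had a median cortical level of 18.7 CPM and a median log2 difference of 2.19, and the 10 without one had 136 CPM and 2.33. Leaving out 1 library at a time moved the log2 difference of Rplp1 to 1.57 without untreated replicate 1 and that of Rps24 to 0.63 without untreated replicate 1. Of the list, 24 without untreated replicate 1 and 26 without untreated replicate 2 were called.

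Translation factors were higher in 13 and lower in 2 of 23 (median 0.88). Of the 13, 4 met the count filter only through the untreated libraries. Eef1b2, an exchange factor of elongation factor 1, stood at 567 and 330.3 CPM against 127 to 211 (log2 difference 1.54, SE 0.23, adjusted p = 1.77e-05). Eif3a, a subunit of the initiation scaffold, stood at 211 and 242 against 103 to 161 (log2 difference 0.88, SE 0.24, adjusted p = 0.00464). Eef1a1 was called higher (21.8 and 484 against 0 to 1.54; adjusted p = 1.21e-07), but its copies make a cortical level near 0 uncertain. Eef1a2, the isoform of neurons and muscle, had no untreated count against 1.84 to 66.1, a range that reaches below the 10.9 CPM of 3 untreated counts (adjusted p = 0.0243). Fits that each lacked 1 library shifted the log2 difference of Eef1b2 to 0.94 without untreated replicate 1, that of Eif3a to 0.71 without untreated replicate 2 (adjusted p = 0.0702) and that of Eef1a1 to 9.02 without untreated replicate 1, 9.0 without Camk2a replicate 2, 9.02 without Gad2 replicate 1 and 9.02 without Gfap replicate 2. Dropping single libraries took the log2 difference of Eef1a2 to -7.69 without untreated replicate 1 (adjusted p = 0.0852) and -7.68 without untreated replicate 2 (adjusted p = 0.0983). Translation factors gave 12 without untreated replicate 1 and 7 without untreated replicate 2.

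Immediate early genes, which respond within minutes to stimulation, showed no common direction: 5 of 16 were higher and 5 lower (median -0.64). All 5 lower genes would not have met the count filter in the untreated libraries alone. Zfp36l1, which speeds the decay of AU-rich mRNA, stood at 371 and 646 CPM in the untreated Cx3cr1 libraries, 0.483 and 3.0 in Camk2a, 1.54 and 1.97 in Gad2 and 317 and 339.9 in Gfap (log2 difference 5.59, SE 0.32, adjusted p = 5.52e-11), high in both glial types. Dusp6, a phosphatase that ends ERK signalling, stood at 458 and 712 against 23.7 to 67.6 (log2 difference 3.92 ± 0.22, SE). Egr1, a neuronal activity gene, stood at 7.27 and 51.4 CPM in the untreated Cx3cr1 libraries, 575 and 378 in Camk2a, 272 and 188 in Gad2 and 54.8 and 42.3 in Gfap (log2 difference -2.56, SE 0.52, adjusted p = 0.000439), highest in Camk2a, and Nr4a1, a nuclear receptor, at 14.5 and 7.34 against 69.9 to 162 (log2 difference -3.43, SE 0.61, adjusted p = 0.000117). Fos, Fosb and Egr3 had no untreated count. Ier5 was called higher, although its untreated values of 399.6 and 147 lay inside the cortical range of 76.9 to 459 (log2 difference 0.83 ± 0.29, SE). Removing 1 library in turn brought the log2 difference of Egr1 to -1.91 without untreated replicate 1 and -4.61 without untreated replicate 2, that of Nr4a1 to -4.15 without untreated replicate 1 and that of Ier5 to between -0.23 and 0.77, with adjusted p from 0.0581 to 0.588, without any 1 of Camk2a replicate 1, Camk2a replicate 2, Gad2 replicate 1, Gad2 replicate 2, Gfap replicate 1, Gfap replicate 2 and untreated replicate 1. The higher count was 3 without untreated replicate 1 and 5 without untreated replicate 2.

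Heat shock chaperones were likewise mixed, with 5 higher and 3 lower of 15 (median -0.02). Hsp90b1, a chaperone of the endoplasmic reticulum that folds Toll-like receptors and integrins, stood at 538 and 727 CPM in the untreated Cx3cr1 libraries, 34.3 and 31.5 in Camk2a, 46.1 and 43.4 in Gad2 and 15.9 and 26.99 in Gfap (log2 difference 4.29, SE 0.22, adjusted p = 7.21e-12), with no overlap. Hspa5, its partner in the same compartment, stood at 283 and 367 against 159 to 255 (log2 difference 0.67, SE 0.24, adjusted p = 0.0251). Hspa9, the mitochondrial chaperone, stood at 36.3 and 51.4 against 95.1 to 247 (log2 difference -1.75, SE 0.38, adjusted p = 0.000875). Hspa8, the constitutive cytosolic chaperone, stood at 182 and 506 against 1.23 to 7.01 (log2 difference 6.33, SE 0.41, adjusted p = 2.93e-10), and its processed copies make the low cortical counts uncertain. A fit without 1 of the libraries changed the log2 difference of Hspa5 to between 0.41 and 0.69, with adjusted p from 0.0534 to 0.285, without any 1 of the 8 libraries and that of Hspa8 to 5.35 without untreated replicate 2. Higher chaperones numbered 4 without untreated replicate 1 and 3 without untreated replicate 2, and lower ones 2 to 4 with any 1 library left out.

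Splicing regulators were lower in 17 and higher in 6 of 31 (median -1.01). Of the 17, 6 would not have met the count filter in the untreated libraries alone. Qk, a regulator of glial splicing, stood at 2311 and 2701 CPM in the untreated Cx3cr1 libraries, 25.6 and 20.5 in Camk2a, 90.7 and 96.6 in Gad2 and 2272 and 1847 in Gfap (log2 difference 3.92, SE 0.21, adjusted p = 1.69e-11); the untreated and Gfap libraries overlapped and were far above the neurons. Mbnl1, a muscleblind protein, stood at 770.2 and 418 against 55.8 to 139.9 (log2 difference 2.87, SE 0.23, adjusted p = 5.78e-09). Elavl2, an Elav protein of neurons, stood at 14.5 and 14.7 CPM in the untreated Cx3cr1 libraries, 248 and 237 in Camk2a, 982 and 802 in Gad2 and 24.5 and 15.9 in Gfap (log2 difference -3.45, SE 0.51, adjusted p = 1.61e-05), with the untreated and Gfap libraries low together. Khdrbs3 stood at 189 and 169 against 234 to 645 (log2 difference -1.10, SE 0.27, adjusted p = 0.00235). Of the microRNA effector and mRNA decay list, 6 of 19 were higher and 3 lower (median 0.69), and Pum2, a Pumilio repressor, stood at 262 and 323 against 38.95 to 107 (log2 difference 1.98, SE 0.24, adjusted p = 1.3e-06). Tob1, which recruits deadenylases, had no untreated count against 74.4 to 136, at least 9.93-fold lower (adjusted p = 2.22e-05). With libraries left out singly, the fit moved the log2 difference of Mbnl1 to 2.20 without untreated replicate 1. In the decay list 4 genes were higher without untreated replicate 1 and 3 without untreated replicate 2.

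**Figure D5:**
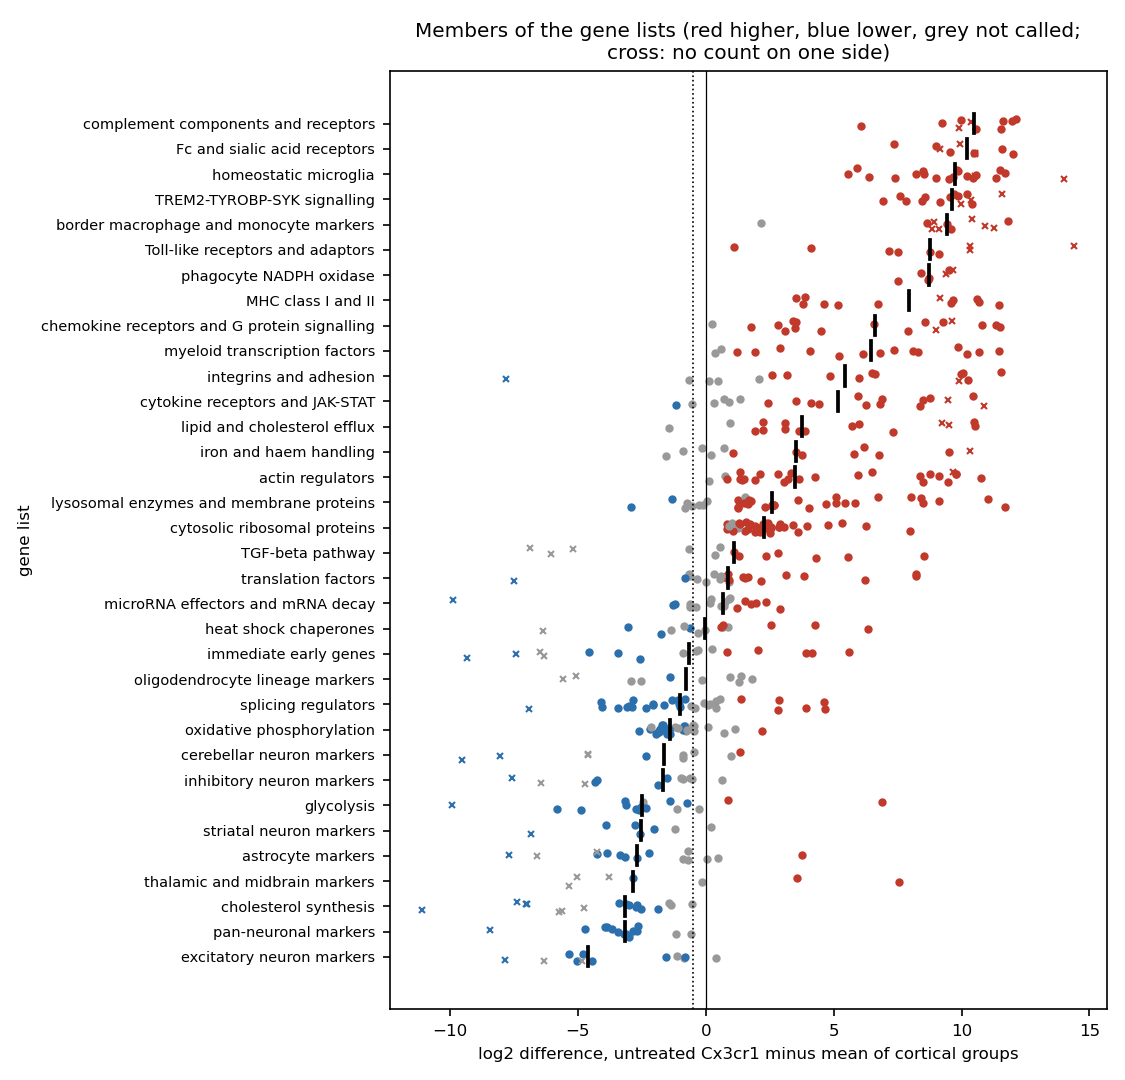
Log2 differences, untreated Cx3cr1 minus the mean of the cortical groups, for the tested members of each gene list with at least 5 tested members, red for higher, blue for lower and grey for not called, with the list median as a black bar. Crosses are members with no count on one side, whose position is fitted, and the dotted line is the median of all genes, -0.48. The lists run from complement (10.47) at the top to excitatory neuron markers (-4.62) at the bottom. With members that had no untreated count set at their bound, the excitatory median is -1.34, above the -3.17 of the pan-neuronal markers.

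Outside the lists and pairs, the largest differences among genes with at least 30 counts in each untreated library included the following genes. Mpeg1, a pore-forming protein that attacks engulfed bacteria, stood at 1933 and 2503 CPM in the untreated Cx3cr1 libraries, 0 and 0 in Camk2a, 1.54 and 0.986 in Gad2 and 0 and 0 in Gfap (log2 difference 13.02, SE 0.34, adjusted p = 1.37e-14). Aif1, the calcium-binding protein Iba1 by which microglia are stained, stood at 792 and 646 CPM against 0 to 1.97 (log2 difference 10.68, SE 0.34, adjusted p = 3.94e-14). Casp8, the protease that starts death receptor signalling, stood at 291 and 579.8 against 0 to 0.614 (log2 difference 11.09, SE 0.51, adjusted p = 1.27e-11). Bin2, Hcls1 and Cd53, genes of leukocyte membranes and cytoskeleton, had log2 differences of 11.48 ± 0.44, 10.43 ± 0.35 and 10.44 ± 0.36 (SE), and Susd3, Ms4a6c and Capn3 had 10.49 ± 0.51, 10.48 ± 0.56 and 10.41 ± 0.50. For all 9 the untreated libraries were far above each cortical library. Refitting on 7 of the 8 libraries brought the log2 difference of Hcls1 to 11.37 without Gfap replicate 2, that of Cd53 to 9.74 without untreated replicate 1 and 12 without Gad2 replicate 2 and that of Susd3 to 11.27 without Gad2 replicate 2.

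The largest differences in the lower direction, among genes with at least 100 counts in every cortical library, included the following genes, which that count minimum requires in all 3 cell types. Cdh10, a cadherin, stood at 438 and 385 CPM in Camk2a, 244 and 255 in Gad2 and 459 and 415 in Gfap and had no untreated count, at least 35.01-fold lower (adjusted p = 2.9e-08). Npdc1, a neural differentiation gene, at 212 to 442, and Adcy2, an adenylyl cyclase, at 243 to 532, also had none and were at least 31.9-fold and 29.5-fold lower. Fstl1, Igsf11 and Adcyap1r1, a neuropeptide receptor, were likewise without a count, at least 16.4-fold, 17.9-fold and 17.9-fold lower. Fmn2, an actin nucleator, stood at 7.27 and 0 against 253 to 879.9 (log2 difference -6.85, SE 0.59, adjusted p = 1.9e-08), and Negr1, a neuronal adhesion gene, at 7.27 and 0 against 235 to 452 (log2 difference -6.42, SE 0.60, adjusted p = 5.07e-08). Syne1 and Coro2b had the same untreated values and log2 differences of -6.59 ± 0.62 and -6.54 ± 0.62 (SE). The last 4 genes rest on 1 count in 1 untreated library. The log2 difference without 1 library moved for some genes: that of Fmn2 to -12 without untreated replicate 1 and -5.95 without untreated replicate 2, that of Negr1 to -11.57 without untreated replicate 1 and -5.52 without untreated replicate 2 and that of Syne1 to -11.74 without untreated replicate 1 and -5.68 without untreated replicate 2. Leaving out 1 library at a time moved the log2 difference of Coro2b to -11.69 without untreated replicate 1 and -5.64 without untreated replicate 2.

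For 296 of the higher genes the Gfap libraries alone reached the untreated values, and the neuronal libraries all lay below them. Glul, which makes glutamine from glutamate and is known as an astrocyte marker, stood at 4926 and 2774 CPM in the untreated Cx3cr1 libraries, 33.8 and 55.6 in Camk2a, 76.9 and 62.1 in Gad2 and 8674 and 6376 in Gfap (log2 difference 3.75, SE 0.26, adjusted p = 8.35e-10). The Gfap libraries were the highest, and the untreated libraries were above all neuronal ones. The next examples were picked after their values were seen, from the most abundant of these genes in Gfap. Tns3, a tensin of cell adhesions, stood at 342 and 330.3 CPM in the untreated libraries, 804 and 832 in Gfap and 2.42 to 9.23 in the neurons (log2 difference 3.71, SE 0.27, adjusted p = 1.66e-09). Tsc22d4 stood at 494 and 521 CPM in the untreated Cx3cr1 libraries, 5.31 and 5.01 in Camk2a, 13.8 and 19.7 in Gad2 and 697 and 785 in Gfap (log2 difference 3.64, SE 0.23, adjusted p = 2.59e-10). Rassf2 stood at 1083 and 793 against 1464 and 1301 in Gfap (log2 difference 1.88, SE 0.22, adjusted p = 9.01e-07), and Mid1ip1 at 748 and 1006 against 1946 and 1677 (log2 difference 1.53, SE 0.22, adjusted p = 1.08e-05). Fits that each lacked 1 library shifted the log2 difference of Glul to 3.12 without untreated replicate 1.

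Markers of other cells were examined beside these results. Border macrophage and monocyte markers were higher in 10 of 11 (median 9.42), 10 of them tested only through the untreated libraries, and in 6 without untreated replicate 1 and 7 without untreated replicate 2. They had a summed level of 1359 to 2701 CPM in the untreated libraries against 3.0 to 97.5 in the cortical libraries. Mrc1, the mannose receptor of perivascular and meningeal macrophages, stood at 399.6 and 844 CPM against 0 to 0.501 (log2 difference 11.80, SE 0.49, adjusted p = 3.63e-12). Lyve1, a hyaluronan receptor of the same cells, stood at 87.2 and 440.4 against 0 to 0.966 (log2 difference 9.42, SE 0.69, adjusted p = 3.45e-09), and Cd163, a haemoglobin scavenger receptor, at 131 and 455 with no cortical count, at least 784-fold higher. All 3 were higher in replicate 2. Of the monocyte genes, Ccr2 stood at 29.1 and 103 with no cortical count, Plac8 had 0 and 2 untreated counts, and Ly6c2, Chil3 and Vcan had none. Their part in the myeloid lists above was not tested. Dropping single libraries took the log2 difference of Lyve1 to 10.08 without untreated replicate 1 and 7.84 without untreated replicate 2 and that of Cd163 to 11.90 without untreated replicate 1 and 10.20 without untreated replicate 2. Of 14 lymphocyte and neutrophil markers in the files 12 had no untreated count and none was tested, and of 14 endothelial and mural markers 13 had none. Hbb-bs, a haemoglobin chain of red cells, stood at 65.4 and 162 against 1.54 to 7.01 (log2 difference 5.14, SE 0.52, adjusted p = 1.42e-07), a family with near-identical copies. Removing 1 library in turn brought the log2 difference of Hbb-bs to 4.29 without untreated replicate 2.

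Most pan-neuronal markers were lower. Of pan-neuronal markers 12 of 14 were lower, with a median of -3.17, and the summed level was 886 to 998 CPM in the untreated libraries against 1166 to 19120 in the cortical libraries. Syp, a synaptic vesicle protein, stood at 50.9 and 36.7 CPM in the untreated Cx3cr1 libraries, 706 and 608 in Camk2a, 893 and 1004 in Gad2 and 134 and 87.7 in Gfap (log2 difference -3.21, SE 0.39, adjusted p = 1.25e-06), lowest in the untreated libraries and next in Gfap. Lower calls among markers of single types were 7 of 12 for excitatory and 5 of 12 for inhibitory neurons, 7 lower and 1 higher of 15 for astrocytes, where the higher one was Glul, and 1 of 10 for the oligodendrocyte lineage. Of the lower genes, 3 pan-neuronal, 4 excitatory, 2 inhibitory and 3 astrocyte markers would not have met the count filter in the untreated libraries alone. The inhibitory count was 3 without untreated replicate 1 and 2 without untreated replicate 2, and that of the oligodendrocyte lineage ran from 0 to 3 with any 1 library left out. Slc1a3, an astrocyte glutamate transporter named after its values were seen, stood at 153 and 220.2 CPM in the untreated libraries, 6266 and 4828 in Gfap and 15.9 to 25.6 in the neurons, between the neuronal and Gfap values, and did not pass (adjusted p = 0.228). Slc4a4, an astrocyte bicarbonate transporter, stood at 14.5 and 22.02 CPM in the untreated Cx3cr1 libraries, 32.4 and 54.1 in Camk2a, 152 and 167 in Gad2 and 3006 and 2323 in Gfap (log2 difference -3.85, SE 0.51, adjusted p = 4.37e-06).

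Since the microglial libraries came from brain and not cortex, markers of other regions were counted. Most are neuronal genes, and some had many counts in the cortical neuron libraries. Itpr1 had 1195 and 1042 counts in Camk2a, and Tac1 had 382 and 749 in Gad2. Lower calls in these lists therefore cannot show which region was sampled. Cerebellar neuron markers were lower in 3 and higher in 1 of 10, striatal markers lower in 5 of 7 (3 without untreated replicate 1 and 2 without untreated replicate 2), and thalamic and midbrain markers lower in 1 and higher in 2 of 7. All 7 tested striatal markers and 8 of the 10 cerebellar ones would not have met the count filter in the untreated libraries alone. Of 19 hypothalamic and hindbrain markers 18 had no untreated count and none was tested. The higher thalamic markers were Prkcd, given above, which leukocytes also express, and Tcf7l2, a Wnt pathway factor, at 153 and 80.7 CPM in the untreated Cx3cr1 libraries, 2.42 and 1.502 in Camk2a, 1.54 and 2.96 in Gad2 and 186 and 182 in Gfap (log2 difference 3.56, SE 0.41, adjusted p = 8.22e-07), where the Gfap libraries were as high. The higher cerebellar marker was Etv1, at 58.1 and 44.04 against 6.90 to 43.6 (log2 difference 1.35, SE 0.52, adjusted p = 0.0397). A fit without 1 of the libraries changed the log2 difference of Tcf7l2 to 2.88 without untreated replicate 1 and that of Etv1 to between 0.97 and 1.47, with adjusted p from 0.06 to 0.307, without any 1 of Camk2a replicate 1, Gad2 replicate 1, Gad2 replicate 2, Gfap replicate 1, untreated replicate 1 and untreated replicate 2.

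The genes called in the 2 directions had different median lengths. Genes higher in untreated microglia spanned a median of 25.4 kb from start to end in RefSeq (GRCm38.p6), those lower 34.1 kb, those not called 24.3 kb and all tested genes 27 kb. Genes of 100 kb or more made up 13% of the higher, 24.6% of the lower, 13.5% of the uncalled and 16.5% of all tested genes. Lengths were found for 9413 of 9421 genes. These spans are a description of the called sets, with no test.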

How the data were processed

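cTag-PAPERCLIP crosslinks a GFP-tagged poly(A)-binding protein to mRNA, and per the labels' protocols the complexes were precipitated with the GFP antibodies and sequenced with a random barcode in the linker. The deposited values were taken to be raw counts per gene symbol, 1 library per file. Reads were handled with cutadapt and Novoalign on the mm10 build, per the submitters' processing notes. Versions, the collapsing of duplicates, the counting tool and the use of strand are not given in the sources here, so overlapping and antisense genes cannot be told apart and duplicates may remain in the counts.

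From these counts, edgeR 4.0.16 (R 4.3.3) fitted the 4 groups of 2 libraries together, after filterByExpr and TMM scaling, and tested the untreated Cx3cr1 coefficient against the mean of the other 3 with glmQLFTest. Calls used a Benjamini-Hochberg adjusted p of 0.05 over all 9421 genes tested, of 23871 in the files. CPM are counts per 1000000 after TMM scaling. Differences in the text are log2, and SE is the difference divided by the root of its F statistic. On simulated data of 9113 genes for this comparison, 92% of genes raised 4-fold and 50% of genes lowered 4-fold were recovered. At 2-fold the shares were 14% and 2%, and 0% of unchanged genes were called. These shares hold for the simulated data only. The spread between simulated replicates is not given here, and the untreated libraries differed from each other more than any cortical pair. The 0% is therefore no estimate of false calls in the real libraries. Symbols were matched to RefSeq for 23787 genes.

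The members and the lists were chosen with earlier results of these data known. Named genes are the markers and driver genes, in each list the called genes of highest mean level (up to 4 in the commoner direction and 2 in the other), gene pairs, the 10 largest rises and falls outside lists and pairs among well-counted genes that separated the groups, and the 4 genes furthest apart in each direction between the untreated libraries. Predicted, mitochondrial and sex-linked genes were left out of the rises and falls. The text gives a selection of these, and genes named after their values were seen are marked. Alternatives were other scalings, DESeq2 1.42.0, other filters, a term for the replicate number, single libraries left out, thinning to the shallowest library, the PBS libraries in place of the untreated ones, and a fit of all 14 tagged brain libraries. The liver and RNA-seq libraries were not analysed here. Results for some genes are not reported here.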

Additional observations from a re-analysis of the deposited data

How the results depend on the processing

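The counts of 2051 higher and 2636 lower genes came to 2063 and 2630 with RLE scaling, 1969 and 2789 with library totals alone, 2152 and 2349 with DESeq2, 2250 and 3043 with no filter and 2191 and 2663 with a minimum of 5 CPM in 2 libraries. Leaving out single libraries gave 1576 to 1930 higher and 1993 to 2822 lower. Thinned to the shallowest library, only 4466 genes could be tested and the counts were 1316 and 1369. The PBS-treated libraries in place of the untreated ones gave 2862 and 3130, and a fit of all 14 tagged libraries 2330 and 2681. Same-numbered libraries of different groups deviated together by at most a correlation of 0.066, so the numbers were not taken as pairs; with the replicate number as a block the counts were 2055 and 2654. Of 226 named genes that were called, 226 kept direction and call with RLE scaling and with the block, 224 with DESeq2, 218 without a filter, 200 without untreated replicate 1 and 196 without untreated replicate 2. After thinning to the shallowest library 191 of the 226 kept both, and 19 were weaker. With the PBS-treated libraries in place of the untreated ones 213 kept both, 9 were weaker and 4 were reversed. Leaving out single libraries moved the log2 difference from -0.15 to 4.18 for Pfn1, from -0.23 to 1.31 for Ier5, from -2.27 to 2.23 for Usf1 and from -7.66 to 4.37 for Thg1l, negative for these 4 without untreated replicate 1. With the PBS-treated libraries in place it turned to -0.10 for Ldha, -0.41 for Dnaja1, 1.05 for Pabpn1, 0.66 for Hsp90ab1, 0.74 for Evl and 1.13 for Elavl1. The causes were not tested. At 154959 and 133456 counts, 1 count in an untreated library is about 7 CPM, and a lower gene without an untreated count has a bound and no measured fold.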
